A study of Homo sapiens with 8 samples.

Results

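The HIF pathway and the hypoxia targets outside glycolysis were followed in HepG2 cells, a human hepatocellular carcinoma line, after culture on flat or on porous ground. The 37 genes were listed by name for their known place in the pathway, with earlier results of these data known. All 37 passed the filter of 10 or more counts in 2 or more libraries, among 13943 genes that did so. They comprise 3 HIF subunits, 5 genes of oxygen sensing (EGLN1, EGLN2, EGLN3, HIF1AN and VHL) and 29 targets. The 2D-primed group holds 4 wild-type HepG2 cultures kept for 8 days on conventional 2D culture-ware (flasks in the labels, wells in the methods of the study). The 3D-primed group holds 4 wild-type cultures kept for the same time on Alvetex, an inert porous polystyrene membrane set in a well insert. No drug, genetic change or altered oxygen supply is named for either group, and both were grown in the same serum-containing medium and lifted with trypsin before RNA was taken. The study's methods give a higher seeding number for the inserts than for the flat wells, and the inserts were fed from above and below, so the substrate, the number of cells seeded and the supply of medium cannot be told apart. RNA of whole cultures was sequenced, so that fewer cells expressing a gene and less RNA per cell cannot be told apart either.

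Hypoxia-inducible factors (HIFs) are pairs of an oxygen-regulated alpha subunit, encoded by HIF1A or EPAS1, and the constant partner ARNT. With oxygen present, the EGLN enzymes hydroxylate prolines of the alpha subunit, VHL binds the hydroxylated form and targets it for destruction, and the asparagine hydroxylase HIF1AN blocks its coactivator contact. When oxygen falls, the pair gathers on DNA and switches on genes of oxygen supply, acid handling, mitochondrial clearance and collagen modification, some of the EGLN genes among them. Much of this control acts on protein, and RNA alone was measured here.

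The libraries held 21599630 to 25019499 counts in the 2D-primed and 22153063 to 27844077 counts in the 3D-primed group. All 8 hepatocyte markers were counted in every library, with a summed level of 68976 to 75051 CPM (counts scaled to a common library size) in 2D-primed and 96484 to 108487 CPM in 3D-primed cells. Of these 8, 6 were called higher and 2 lower (APOB and SERPINA1), where 32.4% and 31.6% of all genes were. Most of the higher sum came from ALB, at 26391 and 44035 CPM on average, and AFP, at 8679 and 18752 CPM. Of the 5 markers listed for each of 3 other cell types, the endothelial genes KDR and TEK, the leukocyte genes PTPRC and CD3E and the fibroblast genes COL1A2, COL3A1 and DCN had at most 2 counts in any library. The summed level of the endothelial markers was 5.66 to 7.76 CPM after 2D and 4.16 to 5.70 CPM after 3D priming, with CDH5 called lower (log2 fold change -1.56), VWF called higher and PECAM1 not called. The fibroblast markers summed to 11.0 to 12.2 and 15.1 to 18.1 CPM, nearly all of it PDGFRB, which was called higher, while COL1A1, with at most 28 counts, was called lower. The leukocyte markers summed to 2194 to 2286 and 2421 to 3027 CPM, nearly all of it lysozyme (LYZ), which was called higher together with CD14. CD68, a gene of lysosomes that marks macrophages, was called lower, from 72.7 to 34.4 CPM on average (log2 fold change -1.08). Genes of mitochondrial DNA took 1.399 to 1.81% of the counts in 2D-primed and 2.47 to 2.98% in 3D-primed libraries, and the part of these differences in the results was not tested.

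Hypoxia targets were lower in 3D-primed cells almost throughout. Of the 37 genes, 33 were called lower, 2 were called higher (EGLN2 and VHL) and 2 did not pass the threshold (HIF1AN and EPO), where edgeR's quasi-likelihood test called 31.6% of all genes lower and 32.4% higher at a Benjamini-Hochberg adjusted p below 0.05. In the targets alone, 28 of 29 were called lower and none higher. Their median log2 fold change, 3D-primed over 2D-primed, was -1.23, against 0.01 over all genes tested. By 2-fold or more, 19 of the 37 genes were called lower and none higher, against 7.01% and 4.86% of all genes. In 32 genes every 3D-primed library lay below every 2D-primed library and in 2 genes every one lay above, which held for 29.5% and 30.2% of all genes. DESeq2 called 32 of the 37 genes lower and 2 higher, against 30.8% and 29.6% of all genes. The summed level of the 29 targets was 7913 to 9354 CPM in the 2D-primed libraries and 2621 to 3941 CPM in the 3D-primed libraries.

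**Figure D1:**
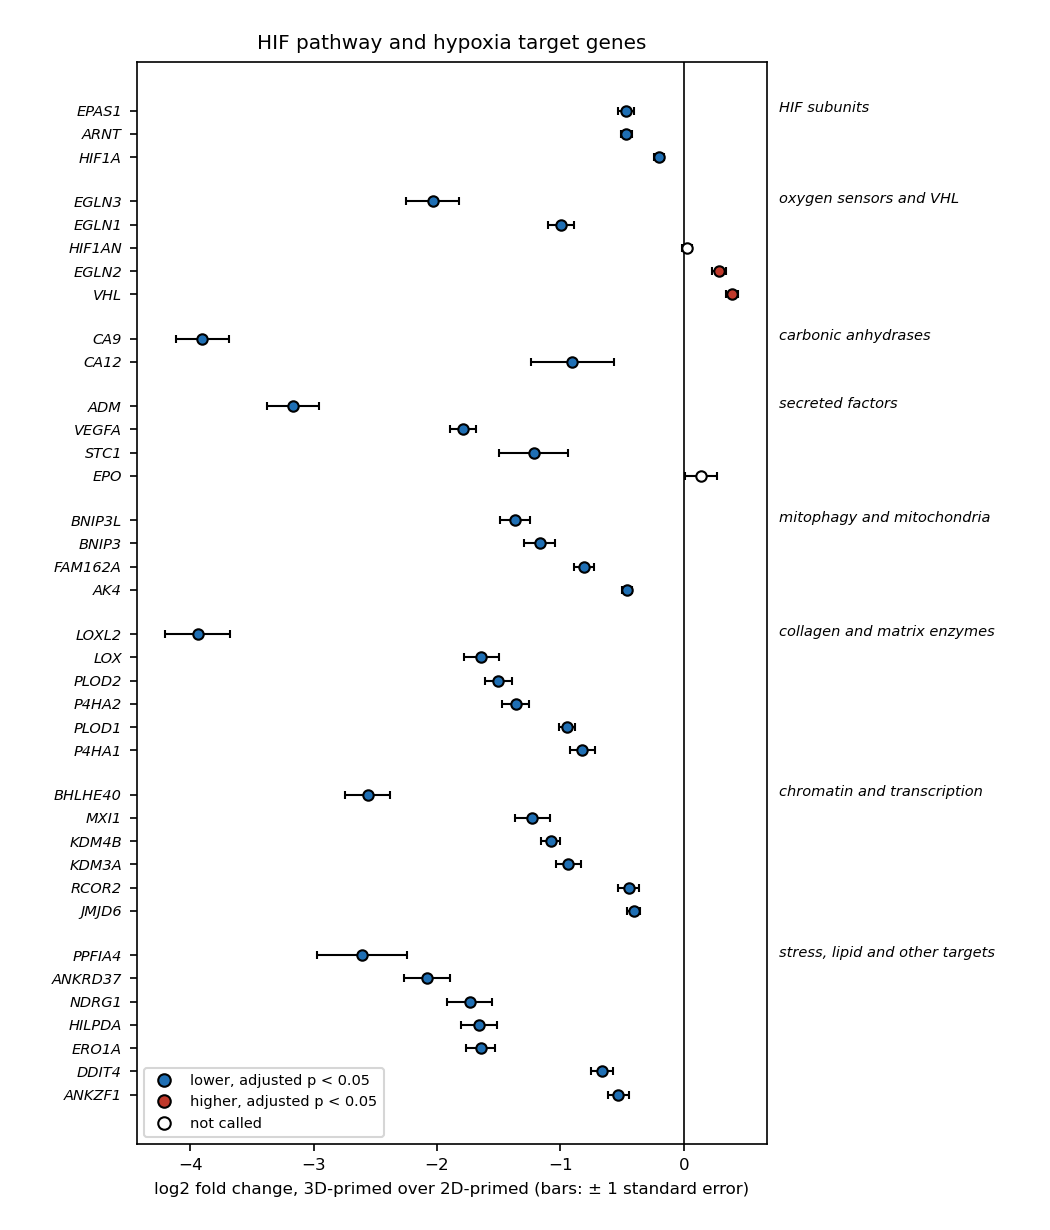
Log2 fold change (3D-primed over 2D-primed, horizontal axis) of all 37 genes, grouped by role and ordered by size within each role, with bars of 1 standard error from edgeR. Filled blue points were called lower, red points higher and open points were not called. LOXL2 at -3.94 and CA9 at -3.90 lie farthest to the left, and EGLN2, VHL, HIF1AN and EPO lie to the right of 0.

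**Figure D2:**
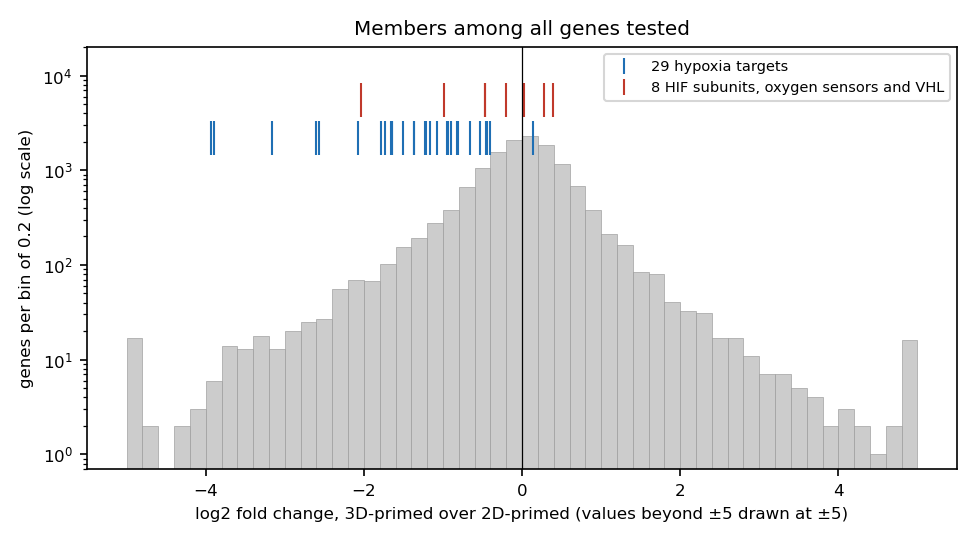
Histogram of the log2 fold changes of all 13943 genes tested (grey, vertical axis on a log scale), with each of the 29 targets as a blue tick and each of the 8 HIF subunits, oxygen sensors and VHL as a red tick. The ticks of the targets lie left of 0 apart from EPO at 0.14.

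A feature of sequence linked to the pathway is the core of the hypoxia response element, to which HIF pairs bind. The targets were listed for their known place in the pathway, so a high share with the core could follow from that choice. As 28 of the 29 targets were called lower, the shares do not bear on the difference between the cultures. The core reads ACGTG or GCGTG, and both the form ACGTG and the full core were counted. Promoter windows of RefSeq (GRCh38.p14, from 250 bases before to 50 bases after the start of transcription) were searched for ACGTG on both strands, read as CACGT on the opposite strand, and the palindrome CACGTG holds a match on each. Windows were given for 27 of the 37 genes (not VHL, VEGFA, STC1, BNIP3L, LOXL2, JMJD6, RCOR2, NDRG1, HILPDA and ANKZF1), and a gene with several windows counted once if any of them held a match. Matches stood in 16 of the 27 genes (59.3%), in 24.9% of all 27305 genes with a window and in 28.5% of the 15843 protein-coding genes. Among the targets called lower, 14 of 19 genes had a match (73.7%), and of the 7 subunits and sensors 2 had one, EGLN1 and EGLN2. The full core, ACGTG or GCGTG on either strand (CACGT or CACGC on the other), was more common in every set of genes. It stood in 23 of the 27 genes (85.2%), against 52.4% of all genes with a window and 61.9% of the protein-coding genes. It was in 18 of the 19 targets called lower (94.7%) and in 4 of the 7 subunits and sensors (57.1%), so that the members differed less from other genes by the full core than by ACGTG. The 250 bases before the start are shown 5′ to 3′ along the gene for the 4 targets that were called lower by 4-fold or more and had a match to ACGTG there, and for the sensor EGLN1, with the matches to ACGTG in capitals.
CA9, chr9:35673678-35673927, plus strand: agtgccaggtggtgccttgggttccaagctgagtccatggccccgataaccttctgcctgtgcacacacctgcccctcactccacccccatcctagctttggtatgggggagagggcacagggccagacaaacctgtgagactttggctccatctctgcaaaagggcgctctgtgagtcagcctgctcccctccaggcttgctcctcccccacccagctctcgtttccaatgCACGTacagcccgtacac
BHLHE40, chr3:4979187-4979436, plus strand: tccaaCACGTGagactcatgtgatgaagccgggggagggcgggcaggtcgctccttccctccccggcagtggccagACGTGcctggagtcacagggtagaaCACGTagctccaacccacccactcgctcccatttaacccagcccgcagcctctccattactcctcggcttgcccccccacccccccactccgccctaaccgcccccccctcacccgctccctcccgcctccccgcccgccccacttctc
ANKRD37, chr4:185396591-185396840, plus strand: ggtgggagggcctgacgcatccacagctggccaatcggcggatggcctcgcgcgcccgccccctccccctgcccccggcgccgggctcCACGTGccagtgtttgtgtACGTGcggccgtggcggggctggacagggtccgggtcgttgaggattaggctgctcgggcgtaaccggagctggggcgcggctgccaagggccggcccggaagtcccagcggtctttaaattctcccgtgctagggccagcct
PPFIA4, chr1:203026241-203026490, plus strand: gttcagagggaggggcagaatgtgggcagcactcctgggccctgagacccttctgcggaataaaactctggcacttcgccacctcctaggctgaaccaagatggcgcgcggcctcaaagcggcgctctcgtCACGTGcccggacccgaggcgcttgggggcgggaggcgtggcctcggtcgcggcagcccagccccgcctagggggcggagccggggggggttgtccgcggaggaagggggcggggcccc
EGLN1, chr1:231422288-231422537, minus strand: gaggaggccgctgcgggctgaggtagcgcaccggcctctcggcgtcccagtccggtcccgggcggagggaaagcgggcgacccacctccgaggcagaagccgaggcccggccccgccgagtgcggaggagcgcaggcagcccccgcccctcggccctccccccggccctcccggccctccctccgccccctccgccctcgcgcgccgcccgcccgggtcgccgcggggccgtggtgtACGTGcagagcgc
The match of CA9 begins 18 bases and that of EGLN1 13 bases before the start. BHLHE40 holds 4 matches before the start, counting the palindrome at its far end on both strands, ANKRD37 holds 3 and PPFIA4 holds 2, the latter from a single palindrome. The sequences shown were chosen for having a match. ADM and EGLN3, also called lower by 4-fold or more, had windows without a match to ACGTG. EGLN2, which was called higher, held a palindrome that begins 49 bases before a start of transcription. These are matches of letters, and binding was not measured.

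All 3 HIF subunit genes were lower in 3D-primed cells, by less than most of their targets. HIF1A (ENSG00000100644, chromosome 14, GRCh38 positions 61695513 to 61748259) had 145, 150.3, 144 and 146 CPM in 2D-primed replicates 1 to 4 and 123, 124, 124 and 136 CPM in the 3D-primed replicates 1 to 4. The groups did not overlap, although 3D-primed replicate 4 came near the 2D-primed range. The log2 fold change of HIF1A was -0.20 (standard error, SE, 0.0422, BH-adjusted p = 0.0018 by the quasi-likelihood test of edgeR). EPAS1 (ENSG00000116016, chromosome 2, from 46293667 to 46386697), which encodes the second alpha subunit, had 265, 295, 299.9 and 296 CPM after 2D and 197, 198, 238 and 202 CPM after 3D priming. Its change was -0.47 on the log2 scale (SE 0.0680, edgeR's adjusted p = 1.5e-04), with 2D-primed replicate 1 and 3D-primed replicate 3 nearest to the other group. The shared partner ARNT (ENSG00000143437, chromosome 1, from 150809713 to 150876708) had 43.5, 45.8, 43.6 and 45.9 CPM in the 2D-primed and 31.5, 33.1, 34.2 and 30.7 CPM in the 3D-primed replicates. From a mean of 44.7 ± 1.35 to one of 32.4 ± 1.54 CPM (SD, n = 4), it was 1.38-fold lower after 3D priming (edgeR's adjusted p = 7.7e-06).

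The oxygen sensors moved in both directions. EGLN3, itself a known HIF target, changed most, with 99.7, 132, 147 and 130.1 CPM in the 2D-primed and 31.6, 28.7, 44.8 and 18.8 CPM in the 3D-primed replicates 1 to 4. The lowest 2D-primed library was 2.23-fold above the highest 3D-primed one, and the log2 fold change was -2.03 (SE 0.215, edgeR's adjusted p = 1.6e-05). EGLN1, the main HIF prolyl hydroxylase in most cells and also a HIF target, had 129, 167, 159 and 160.2 CPM after 2D and 75.5, 77.1, 91.2 and 65.4 CPM after 3D priming. This is a log2 fold change of -0.99 (SE 0.104, edgeR's adjusted p = 1.4e-05), again without overlap. EGLN2, the family member that hypoxia is not known to induce, rose from 20.8 ± 0.914 to 25.3 ± 1.54 CPM (SD, n = 4), with 24.4, 26.1, 23.6 and 26.96 CPM in the 3D-primed replicates. Each of these lay above the highest 2D-primed library, at 22.1 CPM. Its log2 fold change was 0.28 (edgeR's adjusted p = 0.0014). VHL rose from 53.9 ± 2.64 to 70.6 ± 3.43 CPM, a log2 fold change of 0.39 (SE 0.0493, edgeR's adjusted p = 5.9e-05), and its 3D-primed replicates, at 65.7, 70.6, 73.2 and 72.8 CPM, lay above the highest 2D-primed one, at 56.8 CPM. For HIF1AN no difference was detected, with 67.3 ± 2.31 CPM after 2D and 68.6 ± 1.74 CPM after 3D priming (log2 fold change 0.03, SE 0.0384, edgeR's adjusted p = 0.55). Its 3D-primed replicates stood at 70.4, 69.6, 68.2 and 66.4 CPM, within or next to the 2D-primed range of 64.9 to 70.3 CPM.

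**Figure D3:**
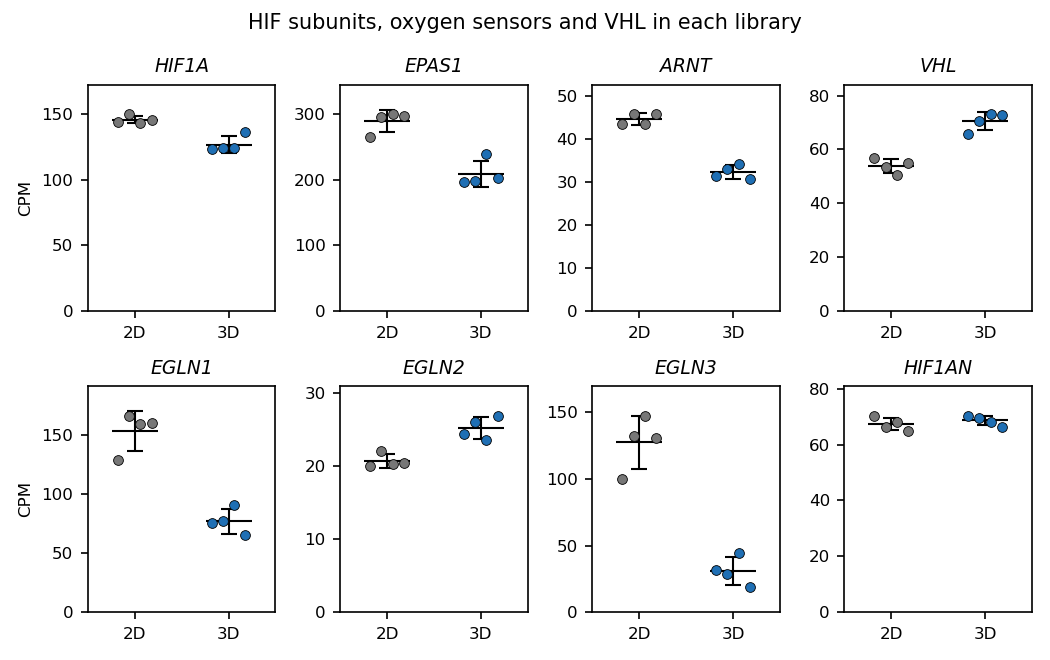
CPM (vertical axes, from 0) of the HIF subunits, oxygen sensors and VHL in each of the 4 2D-primed (grey) and 4 3D-primed (blue) libraries, drawn from left to right in the order of replicates 1 to 4, with the mean and SD of each group as black bars. HIF1AN is the panel in which the groups overlap, and EGLN3 the one in which they lie farthest apart, at 127 and 31.0 CPM on average.

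The carbonic anhydrases of the cell surface turn carbon dioxide into bicarbonate and protons outside the cell. CA9 (ENSG00000107159, chromosome 9, from 35673928 to 35681159), a gene often used as a marker of hypoxia, was counted at 239, 249.5, 284 and 242 CPM in the 2D-primed and at 18.6, 13.5, 25.3 and 10.1 CPM in the 3D-primed replicates 1 to 4. Even the highest 3D-primed library was 9.46-fold below the lowest 2D-primed one. The log2 fold change of CA9 was -3.90, or 14.9-fold less after 3D priming (SE 0.218, edgeR's adjusted p = 2.2e-07). CA12 was near the limit of counting, with 5 to 18 counts per library. Its groups overlapped, at 0.464 to 0.733 CPM after 2D and 0.302, 0.310, 0.502 and 0.199 CPM after 3D priming, and its log2 fold change of -0.90 (edgeR's adjusted p = 0.038) did not hold under DESeq2 (adjusted p = 0.087). Nor did it hold without any 1 of 6 libraries, 2D-primed replicates 1, 2 and 3 and 3D-primed replicates 1, 2 and 4 (edgeR's adjusted p = 0.062 to 0.09).

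Among the secreted factors, adrenomedullin (ADM), a peptide that widens vessels, fell most. Its levels were 108, 133, 153 and 138 CPM in the 2D-primed and 12.1, 15.3, 22.05 and 9.57 CPM in the 3D-primed replicates 1 to 4. The groups lay far apart, with a log2 fold change of -3.17 (SE 0.211, edgeR's adjusted p = 6.7e-07). VEGFA (ENSG00000112715, chromosome 6, from 43770184 to 43786487), the growth factor of vessels, had 569, 590.1, 628 and 647 CPM after 2D and 158, 165, 222 and 159.5 CPM after 3D priming. It was 3.45-fold lower after 3D priming (log2 fold change -1.79, SE 0.106, edgeR's adjusted p = 3.1e-07), and 3D-primed replicate 3 stood above the other 3D-primed libraries. Stanniocalcin (STC1), a calcium-regulating hormone, was scarce at 8 to 30 counts per library, or 0.687 to 1.22 CPM after 2D and 0.490, 0.398, 0.466 and 0.318 CPM after 3D priming. Its groups did not overlap, and it had a log2 fold change of -1.22 (SE 0.280, edgeR's adjusted p = 0.0032). Erythropoietin (EPO), the hormone of red cell formation, was the target in which no difference was detected. It was counted at 12.2, 13.7, 10.4 and 13.9 CPM after 2D and at 14.7, 13.7, 16.2 and 10.6 CPM after 3D priming, so that the groups overlapped widely (log2 fold change 0.14, SE 0.131, edgeR's adjusted p = 0.38).

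Enzymes that modify collagen were lower in 3D-primed cells in all 6 cases, with a median log2 fold change of -1.43. LOXL2, a lysyl oxidase-like enzyme that cross-links matrix, had the largest change of the 37 genes. It was counted at 12.97, 17.5, 24.2 and 17.3 CPM in the 2D-primed and at 0.830, 1.06, 1.86 and 0.874 CPM in the 3D-primed replicates 1 to 4, from 22 to 594 counts. The log2 fold change was -3.94 (SE 0.263, edgeR's adjusted p = 6.8e-07). Lysyl oxidase itself (LOX) went from 338 ± 9.95 to 108 ± 26.1 CPM (SD, n = 4), 3.12-fold less after 3D priming (edgeR's adjusted p = 4.0e-06), with 122, 95.6, 137 and 78.8 CPM in the 3D-primed replicates against 327 CPM in the lowest 2D-primed one. PLOD2, the lysyl hydroxylase of collagen ends, was abundant, at 1055, 1117, 1275 and 1154 CPM after 2D and 409.7, 391, 493 and 331 CPM after 3D priming. None of its 3D-primed libraries reached the 2D-primed range, and the log2 fold change was -1.50 (SE 0.108, edgeR's adjusted p = 1.1e-06). Its relative PLOD1, counted at 364, 325, 360.2 and 299.6 CPM after 3D priming and at 627 CPM or more after 2D, changed by -0.95 on the log2 scale (edgeR's adjusted p = 7.3e-07). The catalytic subunits of collagen prolyl hydroxylase differed in size of change, with a log2 fold change of -0.82 for P4HA1 and -1.36 for P4HA2 (edgeR's adjusted p = 4.8e-05 and 2.2e-06), a difference between the genes that was not tested. P4HA1 had 360.4 to 413 CPM after 2D and 219, 222, 249 and 168 CPM after 3D priming. For P4HA2 these were 150.4 to 179 CPM and 65.8, 64.9, 74.8 and 49.3 CPM, and neither gene overlapped between groups.

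Of the 4 mitochondrial genes, BNIP3 and BNIP3L, receptors that mark mitochondria for removal, were more than 2-fold lower in 3D-primed cells. BNIP3 was counted at 526, 535, 577 and 536 CPM in the 2D-primed and at 242, 248, 299 and 179 CPM in the 3D-primed replicates 1 to 4. The spread within the 3D-primed group, 49.3 CPM as SD, exceeded the 22.8 CPM of the 2D-primed group, and the groups lay farther apart than either SD (log2 fold change -1.17, SE 0.124, edgeR's adjusted p = 1.6e-05). BNIP3L went from 241 ± 15.4 to 93.4 ± 18.7 CPM (SD, n = 4), a log2 fold change of -1.36 (edgeR's adjusted p = 4.5e-06). Its 3D-primed replicates followed the order of those of BNIP3 at the top and the bottom, with 86.8, 95.8, 118 and 73.2 CPM. FAM162A, a mitochondrial protein linked to cell death in hypoxia, changed by -0.81 and the adenylate kinase AK4 of the mitochondrial matrix by -0.46 on the log2 scale, with edgeR's adjusted p of 9.9e-06 and 5.8e-06. FAM162A had 113 to 125 CPM after 2D and 73.7, 68.6, 75.0 and 56.5 CPM after 3D priming. AK4 had 419.9 to 445 CPM and 315, 308, 336 and 304 CPM, without overlap in either gene. BNIP3 and AK4 have processed copies elsewhere in the genome among which reads could have been divided. The copies of BNIP3 held at most 4 counts in any library, while AK4P1 held 268 counts on average, against at least 6950 for AK4.

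All 6 regulators of chromatin and transcription fell as well, by a median of 1.01 on the log2 scale. BHLHE40, a repressor that hypoxia and the circadian clock both induce, was counted at 566, 549, 689 and 608 CPM in the 2D-primed and at 97.4, 102, 139.7 and 68.6 CPM in the 3D-primed replicates 1 to 4. That is 5.90-fold less after 3D priming (SE 0.180 on the log2 scale, edgeR's adjusted p = 9.4e-07), with replicate 3 highest and replicate 4 lowest of the 3D-primed libraries. MXI1, an antagonist of MYC, changed by -1.23 (edgeR's adjusted p = 3.0e-05), from 52.1 to 65.6 CPM after 2D to 24.6, 25.2, 35.0 and 20.5 CPM after 3D priming. The histone lysine demethylases KDM3A and KDM4B went from 198 ± 19.7 to 103 ± 14.3 CPM and from 76.1 ± 5.47 to 36.0 ± 3.54 CPM (SD, n = 4), with log2 fold changes of -0.94 and -1.08 (edgeR's adjusted p = 1.6e-05 and 8.4e-07). In the 3D-primed replicates KDM3A stood at 96.5, 101, 124 and 91.5 CPM and KDM4B at 36.1, 34.4, 40.8 and 32.5 CPM. Both had their highest 3D-primed value in replicate 3 and their lowest in replicate 4, below every 2D-primed library. The smallest changes were those of JMJD6 and of the corepressor RCOR2, at -0.41 and -0.45 on the log2 scale (edgeR's adjusted p = 5.4e-05 and 9.2e-04), still without overlap between the groups. JMJD6, an oxygenase that hydroxylates lysines, had 52.0 to 59.7 CPM after 2D and 40.5, 43.2, 44.3 and 40.4 CPM after 3D priming. RCOR2 had 13.4 to 17.5 CPM and 11.2, 11.7, 10.7 and 12.0 CPM, and replicate 3 was its lowest 3D-primed library. KDM3A, KDM4B and JMJD6 belong with the EGLN, P4HA and PLOD enzymes and HIF1AN to the oxygenases that need iron and 2-oxoglutarate and use oxygen as a substrate. Of these 11 genes, grouped after their values were seen, 9 were called lower and EGLN2 was called higher, beside 31.6% and 32.4% of all genes.

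The remaining 7 targets were all lower in 3D-primed cells. NDRG1, a stress-responsive gene and the most highly counted of them, had 1467, 1814, 1969 and 1862 CPM in the 2D-primed and 508, 541, 728 and 359.5 CPM in the 3D-primed replicates 1 to 4. Its lowest 2D-primed library was 2.01-fold above its highest 3D-primed one, and the log2 fold change was -1.73 (SE 0.182, edgeR's adjusted p = 1.5e-05). ERO1A, the oxidase that drives disulfide formation in the endoplasmic reticulum, went from 599 ± 51.0 to 192 ± 35.3 CPM (SD, n = 4; log2 fold change -1.65, edgeR's adjusted p = 1.1e-06), at 184, 189, 239 and 154.5 CPM in the 3D-primed replicates. HILPDA, an inhibitor of fat breakdown at lipid droplets, changed by nearly the same amount, -1.66 (edgeR's adjusted p = 4.2e-06), from 21.4 ± 3.41 to 6.75 ± 1.22 CPM, its 3D-primed replicates at 6.87, 5.93, 8.42 and 5.76 CPM. In both genes no 3D-primed library came near the 2D-primed range. ANKRD37, a small ankyrin repeat protein, had 25.1, 33.1, 39.8 and 37.9 CPM after 2D and 7.81, 8.19, 10.5 and 5.56 CPM after 3D priming. It was 4.22-fold lower after 3D priming (log2 fold change -2.08, SE 0.187, edgeR's adjusted p = 5.1e-06). PPFIA4, a liprin gene, had 3.57, 4.41, 5.05 and 5.36 CPM after 2D and 0.377, 0.443, 1.47 and 0.675 CPM after 3D priming, from 10 to 127 counts. Its 3D-primed libraries spread widely around a mean of 0.741 CPM, and its log2 fold change of -2.61 had the largest SE of the 37 genes, 0.362 (edgeR's adjusted p = 1.1e-04). DDIT4, an inhibitor of the growth kinase mTOR, and ANKZF1, a factor of ribosome quality control, changed least, by -0.66 and -0.53 on the log2 scale (edgeR's adjusted p = 6.7e-05 and 3.7e-04). DDIT4 was counted at 112 to 131 CPM after 2D and at 70.2, 79.7, 91.6 and 71.0 CPM after 3D priming. ANKZF1 was counted at 41.5 to 49.0 CPM and at 29.8, 30.6, 37.8 and 28.3 CPM, with 3D-primed replicate 3 nearest to the 2D-primed group in each gene.

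**Figure D4:**
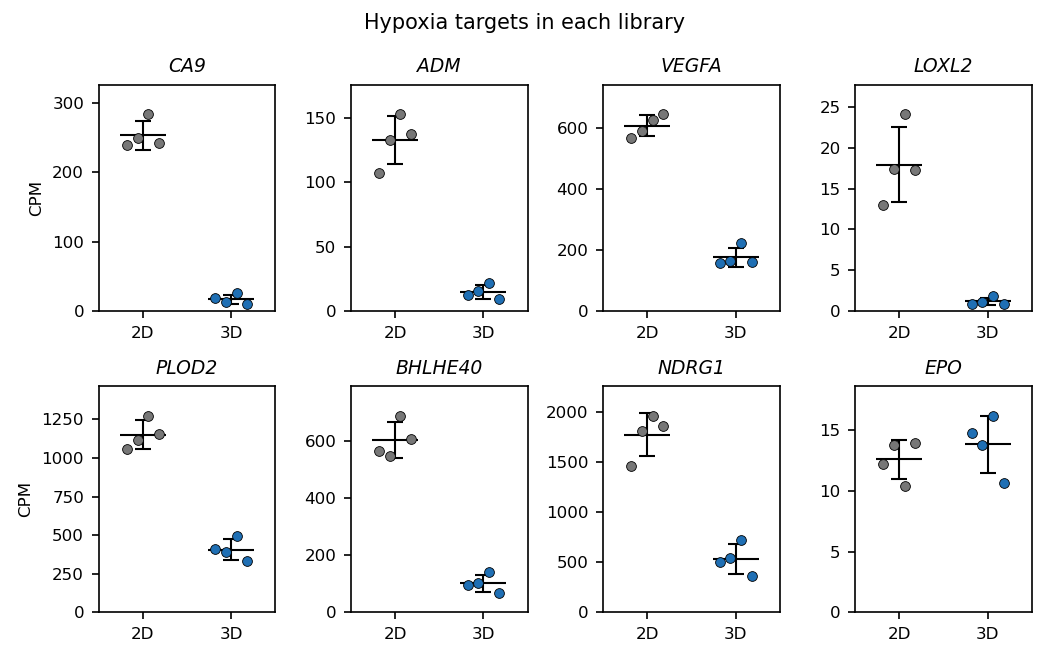
CPM (vertical axes, from 0) of 8 targets in each of the 4 2D-primed (grey) and 4 3D-primed (blue) libraries, in the order of replicates 1 to 4, with the mean and SD of each group as black bars. In CA9, ADM, VEGFA, LOXL2, PLOD2, BHLHE40 and NDRG1 the groups are apart, and in EPO they overlap, at 12.6 and 13.8 CPM on average.

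The 3D-primed libraries stood in much the same order across the targets. Of the 28 targets called lower, 25 had their highest 3D-primed value in replicate 3 and 23 had their lowest in replicate 4. Over all 4401 genes called lower, replicate 3 was the highest 3D-primed library in 45.5% and replicate 4 the lowest in 29.1%. The median target stood at 40.0% of the 2D-primed mean in 3D-primed replicate 1, at 40.3% in replicate 2, at 48.3% in replicate 3 and at 31.2% in replicate 4. In the 2D-primed group, replicate 1 was lowest in 23 of the 28 targets (44.1% of all genes called lower) and replicate 3 highest in 17 (46.8%). The median coefficient of variation of the 28 targets was 18.3% between 3D-primed libraries and 8.12% between 2D-primed libraries, against 7.35% and 6.68% for all genes tested. The 28 were chosen as called lower and include the scarce CA12, STC1 and PPFIA4. The same value was not computed for all genes called lower, so whether the spread is particular to the targets was not tested. These values describe the libraries, and the genes are not independent of one another, since they were counted in the same 8 cultures.

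**Figure D5:**
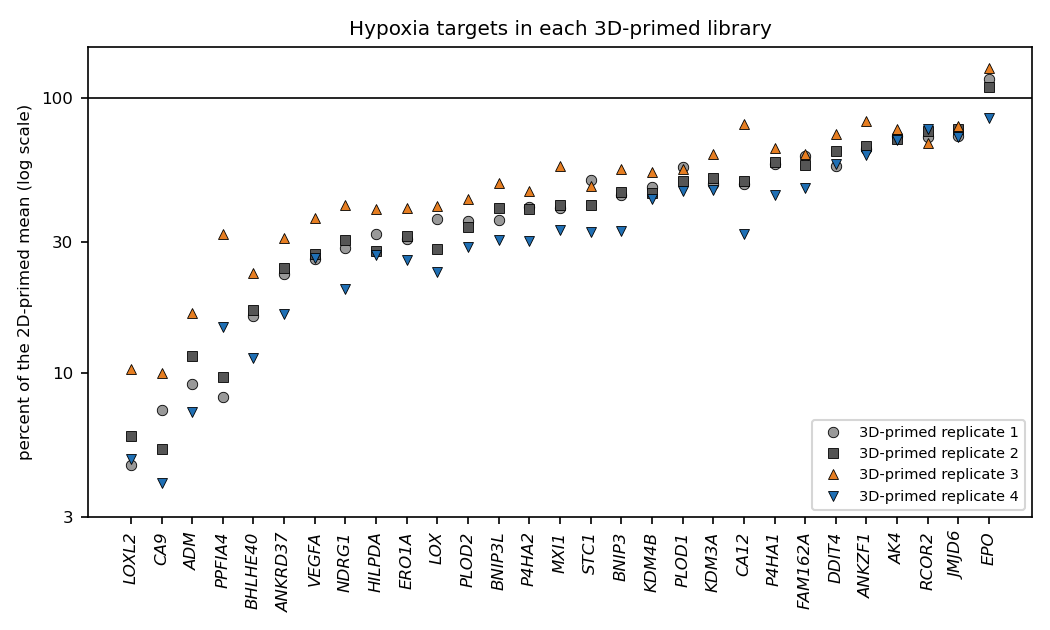
Level of each of the 29 targets in the 4 3D-primed libraries as a percentage of the 2D-primed mean (vertical axis, log scale), ordered by the mean of the 4. Triangles pointing up (replicate 3) are the highest mark in 25 of the 28 targets called lower, and triangles pointing down (replicate 4) are the lowest in 23, with EPO at the right near the line at 100%.

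Genes around the HIF pair that are not among the 37 did not share one direction. Of 18 genes that control HIF activity, 5 were called lower and 4 higher (63.9% of all genes were called in one direction or the other), and their median log2 fold change was 0.00. These 9 calls became 13 with upper-quartile factors and 7 with DESeq2. CITED2, a HIF target that competes with the alpha subunit for its coactivators, changed by -1.26 (SE 0.0547, edgeR's adjusted p = 5.6e-08). The coactivator CREBBP itself changed by -0.84 (edgeR's adjusted p = 6.9e-07), and the ubiquitin ligase SIAH1, which acts on EGLN proteins, by -0.41 (edgeR's adjusted p = 7.1e-05). The others called lower were EP300 and SIAH2, at -0.31 and -0.21 (edgeR's adjusted p = 6.9e-04 and 0.0028). Those called higher were CUL2, ELOC and RBX1, partners of VHL in its ligase, and the scaffold RACK1, with log2 fold changes of 0.13, 0.15, 0.19 and 0.18 (edgeR's adjusted p = 0.014, 0.016, 0.027 and 0.0014). These 6 genes are named after their values were seen, and CUL2 and ELOC were not called by DESeq2 (adjusted p = 0.082 and 0.053). RBX1 lost its call without any 1 of 4 libraries, 2D-primed replicates 2 and 4 and 3D-primed replicates 1 and 2 (edgeR's adjusted p = 0.059 to 0.076), and ELOC without 3D-primed replicate 1 or 2 (edgeR's adjusted p = 0.052 and 0.059). RBX1 also overlapped between the groups. ELOB, a further partner of VHL in its ligase, was not called (log2 fold change 0.07, edgeR's adjusted p = 0.19). It was likewise named after its value was seen.

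A further list of 35 hypoxia targets outside glycolysis went largely the way of the 29. This list, too, was chosen with earlier results of these data known, so it is no independent test. FLT1 and CXCR4 were below the filter and MIR210HG has no values here, which left 32 genes, of which 27 were called lower and 4 higher (31.6% and 32.4% of all genes), with a median log2 fold change of -0.87. TGFA, a ligand of the EGF receptor, was lower in 3D-primed cells with a mean of 41.4 ± 3.23 against 83.3 ± 2.17 CPM (SD, n = 4; log2 fold change -1.01, edgeR's adjusted p = 1.9e-07). The vasoconstrictor endothelin (EDN1) was 6.91-fold lower after 3D priming (log2 fold change -2.79, SE 0.198, edgeR's adjusted p = 1.0e-06). NT5E, the surface enzyme that makes adenosine from AMP, went against the list, from 38.0 ± 2.56 to 96.6 ± 6.04 CPM (log2 fold change 1.34, SE 0.0606, edgeR's adjusted p = 7.0e-08). The others called higher, named after their values were seen, were transferrin (TF, log2 fold change 0.47), which is also among the hepatocyte markers, IGFBP1 (0.55) and the adenosine receptor ADORA2B (0.29), with edgeR's adjusted p of 3.3e-05, 0.0052 and 0.024. ADORA2B lost its call without any 1 of 5 libraries, 2D-primed replicates 1, 3 and 4 and 3D-primed replicates 1 and 4, with edgeR's adjusted p of 0.052 to 0.067, and IGFBP1 and ADORA2B overlapped between the groups.

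Among the 17 glycolytic hypoxia targets, 16 were called lower and none higher (median log2 fold change -1.15), the glucose transporter SLC2A1 at -1.15 and GPI at -1.34 (edgeR's adjusted p = 1.6e-07 and 1.8e-07). Targets of ATF4, the factor of amino acid and reticulum stress, which can also induce DDIT4 and VEGFA, were called higher in 8 of 10 cases, with ASNS at a log2 fold change of 3.22 and PSAT1 at 2.37 (edgeR's adjusted p = 1.8e-10 and 4.7e-09). DDIT3 and ATF3, named after their values were seen, were called lower, at -0.33 and -1.51. The glycolytic and ATF4 counts compare with the same 31.6% lower and 32.4% higher among all genes.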

How the data were processed

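Polyadenylated RNA of 8 HepG2 cultures, 4 2D-primed and 4 3D-primed, was sequenced in read pairs. The deposited values of each library are estimated counts of genes, which the authors obtained with Salmon (v0.14.1) from the human cDNA of Ensembl release 98 (GRCh38) and summed to genes with tximport (v1.12.3). The values are whole numbers without scaling to depth, and the tximport setting for transcript length is not given in the sources used here. Groups were taken from the labels, and the cultures came from one pool of HepG2 cells, so p-values measure only the spread between these libraries, which may be technical. Symbols and positions came from GENCODE release 44 (GRCh38) by identifier.

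The filter of 10 or more counts in 2 or more libraries was applied, as in the study. CPM were scaled by TMM in edgeR 4.0.16 (R 4.3.3), and 3D-primed was compared with 2D-primed by glmQLFit and glmQLFTest over all 13943 genes, with p adjusted by Benjamini-Hochberg at a threshold of 0.05. The standard error is the size of the log2 fold change divided by the square root of F. Pairs of libraries of one group had a chi-square per degree of freedom of 6.19 to 17.0, more than counting alone would give. These values cannot tell libraries of separate cultures from repeat libraries of the same culture. Alternatives were DESeq2 1.42.0, limma-voom (limma 3.58.1), other size factors, other filters, each library left out and the replicate number as a block. Figures were drawn with matplotlib 3.10.9 (Python 3.11.15), tables with pandas 2.3.3.

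The members and lists were chosen with earlier results of these data known. All 37 genes are accounted for. Of the HIF control genes and the further hypoxia targets, the 3 genes with the smallest p are named, and of the glycolytic and ATF4 lists the 2 with the smallest p. Cell type markers are named from their lists, and other genes are said to be named after their values were seen. Promoter sequences are those of RefSeq (GRCh38.p14). Liver tissue and primary hepatocytes, which the study also compared, are not analysed here.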

Additional observations from a re-analysis of the deposited data

Results flagged for a closer look

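In 6 of the 74 groups of 4 values tested (37 genes in each group), the highest or lowest library stood apart by Dixon's gap test, which chance gives in about 1 of 20 groups. HIF1A was at 136 CPM in 3D-primed replicate 4, above 123 to 124 CPM in the other 3D-primed libraries. EPAS1 was at 265 CPM in 2D-primed replicate 1, below 295 to 299.9 CPM in the others, and at 238 CPM in 3D-primed replicate 3, above 197 to 202 CPM. VEGFA was at 222 CPM in 3D-primed replicate 3, against 158 to 165 CPM. In 2D-primed replicate 1, MXI1 was at 52.1 CPM, against 64.6 to 65.6 CPM, and HILPDA at 16.3 CPM, against 22.6 to 23.4 CPM. Each of these values stood apart towards the other group, and none reached it.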

How the results depend on the processing

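Over the 17 alternatives (DESeq2, limma-voom, 3 other size factors, 3 other filters, 8 fits each lacking 1 library, and a block on the replicate number), 619 of 627 recomputed values of the 37 genes kept their direction and their side of the threshold. The other 8 were all of CA12, which lost its call with DESeq2, without a filter, and without any 1 of 6 libraries (2D-primed replicates 1, 2 and 3 and 3D-primed replicates 1, 2 and 4), at log2 fold changes of -0.92 to -0.73 and adjusted p of 0.057 to 0.09; the cause was not tested. From 31 to 33 of the 37 genes were called lower and 2 higher in every setting, and CA12 and STC1 were not tested when 10 counts were required in all 8 libraries. In the fits that lacked 1 library, 8357 to 8875 of all genes were called. Upper-quartile factors moved the median log2 fold change of all genes by 0.05, and no other scaling moved it more. The HIF control genes called, 9 with TMM, numbered 7 to 13 over the alternatives. ALDOC of the glycolytic list was named after its value was seen. It was not called in any direction, with a log2 fold change of -0.11 over all libraries. Its log2 fold change ranged from -0.195 to 0.0087 in the fits that lacked 1 library, the latter without 3D-primed replicate 4. The cause was not tested. Same-numbered libraries of the 2 groups did not deviate together (correlation of deviations from the group means across genes, which are not independent, -0.04 to 0.06), so the numbers were not taken as pairs. With the replicate number as a block, 8490 genes were called, among them 33 of the 37 genes lower and 2 higher, 10 of the HIF control genes and 30 of the further targets, with ADORA2B not called (adjusted p = 0.052). Depth limits CA12 and STC1 most, with at most 30 counts in any library, and PPFIA4 was also scarce, at 10 to 127 counts.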
